A study of Mus musculus with 32 samples.

Results

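Mouse embryonic stem cells of the E14 line whose CTCF protein carries an auxin-inducible degron (AID) were compared before and after 12 h of CTCF degradation in a serum culture condition. The comparison covers 14494 of the 14795 genes listed for these cells, those whose mean over the 4 serum libraries was at least 10 normalised counts. Both groups had the genotype CTCF AID and the serum condition. The 2 libraries of the 0 h group had no indole-3-acetic acid (IAA), and the 2 of the 12 h group had 500 uM IAA for 12 h. Polyadenylated RNA was sequenced, and these 4 libraries are among 32 in the series. The degron was therefore present in treated and untreated cells alike, and cells without a degron given IAA were not analysed here. The labels do not say whether the line is 1 clone or whether replicates came from separate cultures, so the p-values measure only the spread between these libraries. The growth protocol, written once for all samples, describes a serum-free medium with leukemia inhibitory factor, PD0325901 (an inhibitor of MEK, the kinase upstream of ERK) and CHIR99021 (an inhibitor of GSK3, which activates Wnt signalling). How the serum condition differed from it is not given in the sources used here.

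CTCF is a zinc-finger protein that binds a long DNA motif and halts loop-extruding cohesin, so that pairs of its sites anchor chromatin loops and insulate neighbouring domains. It also binds close to the start sites of many genes, and at the clustered protocadherins it joins a distal enhancer to the promoter in use. With an AID tag the protein is marked for the proteasome once an auxin is added, while the CTCF transcript is left in place. Embryonic stem cells in serum and leukemia inhibitory factor are a mixed population that moves between the naive state, held by Nanog, Esrrb, Tfcp2l1 and Klf factors, and a formative state closer to lineage entry.

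The stem cell labels and the serum label were checked first. Pou5f1, the central pluripotency factor, stood at 14009.7 and 13846 normalised counts at 0 h and 13402 and 13769 at 12 h. The sum of the 6 stem cell markers, which also include Sox2, Nanog, Zfp42, Esrrb and Sall4, was 44831 and 45292 at 0 h and 38262 and 38792 at 12 h. Dnmt3l, a DNA methylation cofactor that inhibitor-based media hold low, was at 4989 in the serum 0 h mean against 7.67 in the serum-free 0 h mean of the same CTCF AID line, a level set across tables that were normalised separately. Of 18 genes known to be raised by serum, 17 were higher in the serum 0 h libraries, 16 of them over 2-fold. Fibroblast markers, which feeder cells would bring, summed to 927 and 911 at 0 h and 1044 and 1058 at 12 h over 7 listed genes. Col1a1 was the highest of them, at 431 and 392 at 0 h and 451 and 523 at 12 h. The markers Prrx1, Dcn and Postn are not listed. Primitive endoderm markers summed to 255 and 233 at 0 h and 362 and 297 at 12 h, and mesoderm markers to 65.1 and 91.9 at 0 h and 169 and 171 at 12 h, with Sox17, Foxa2 and Mesp1 not listed. Of the trophoblast markers Cdx2 alone is listed, at 12.8 and 2.12 at 0 h and 21.2 and 15.8 at 12 h, and the 2 neural markers listed summed to 207 and 193 at 0 h and 204 and 182 at 12 h. The part of these markers in the results below was not tested, and in bulk RNA fewer cells of a type and less RNA per cell cannot be told apart. The totals were 15364584 to 15610749 normalised counts per library, and the Pearson correlation between replicates across genes was 0.989 at 0 h and 0.991 at 12 h.

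Between 0 h and 12 h of IAA 2462 of the 14494 genes changed (17.0%), with 1121 higher (7.73%) and 1341 lower (9.25%) at a Benjamini-Hochberg adjusted p under 0.05 by limma on log2(value + 1). Most differences were small. Of the called genes, 68.2% differed by less than 1.5-fold, and 369 (2.55% of all tested) differed by at least 2-fold, 160 higher (1.10%) and 209 lower (1.44%). At least 4-fold differences were called for 65 genes that were lower (0.448%) and 28 that were higher (0.193%). The share of genes called grew with the level, from 3.02% higher and 2.42% lower at means of 10 to 30 to 16.6% higher and 25.5% lower at means of 3000 and over. The libraries of the groups did not overlap for any called gene, nor for 60.2% of all tested genes. A call is said below to have held when limma also made it without each of the 4 libraries in turn. This was so for 622 of the 2462 genes, 448 of them lower and 174 higher, and for 167 of the 369 with at least 2-fold differences. With no trend of the variance over the mean, limma called 316 genes, 289 of them among the 2462 and 206 among the 622 that held.

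**Figure D1:**
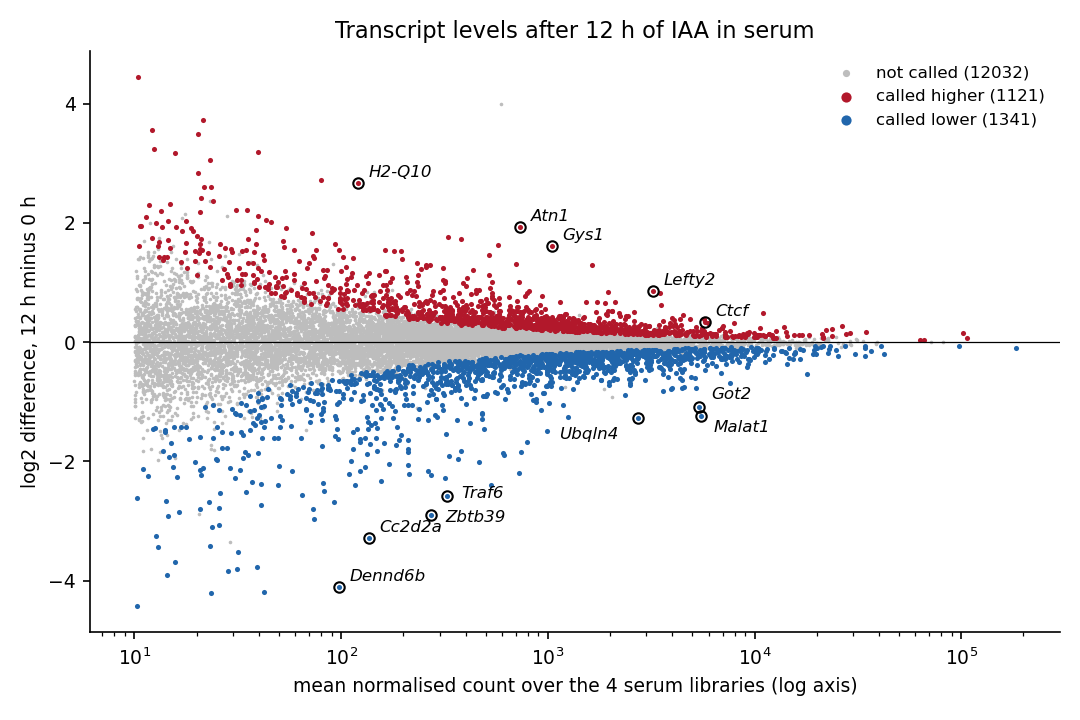
Each point is 1 of the 14494 genes, by its mean normalised count over the 4 serum libraries (log axis) and its log2 difference, 12 h minus 0 h. Red points were called higher (1121) and blue points lower (1341); 12 of the genes named in the text are circled, with Dennd6b the lowest of these at -4.11 and H2-Q10 the highest at 2.67.

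Genes with a fall of at least 4-fold at readily measured levels came from many processes. Dennd6b (ENSMUSG00000015377.10), a protein of the DENN family that activates Rab GTPases, was at 191 and 179 normalised counts at 0 h and 7.73 and 12.3 at 12 h. Cc2d2a (ENSMUSG00000039765.15), a protein of the transition zone at the base of the primary cilium, went from 268 and 228 to 22.8 and 26.3. Their log2 differences of -4.11 (SE 0.27, limma adjusted p 0.000146) and -3.29 (SE 0.18, limma adjusted p 8.11e-05) are the lowest among calls with at least 100 normalised counts in the 0 h mean. Traf6 (ENSMUSG00000027164.8, chr2:101678429-101701669, plus strand), the ubiquitin ligase downstream of Toll-like and interleukin-1 receptors, was at 556 and 559.9 at 0 h and 103 and 84.1 at 12 h. Both 12 h libraries lay far below both 0 h libraries, and the log2 difference was -2.57 with a standard error (SE) of 0.13 and a limma adjusted p of 5.23e-05. Zbtb39 (ENSMUSG00000044617.8, chr10:127739538-127747349, plus strand), a zinc-finger and BTB-domain protein, fell from 471 and 489.8 to 60.5 and 66, by 2.91 on the log2 scale (SE 0.12, limma adjusted p 2.5e-05). Gpr182 overlaps its exons on the opposite strand, and the counting is not stated to use strand.

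Ndufaf3 (ENSMUSG00000070283.4), an assembly factor of respiratory complex I, was at 162 and 161 at 0 h and 24.1 and 24.5 at 12 h, a log2 difference of -2.68 (limma adjusted p 0.000174). Its exons overlap those of Impdh2 on the opposite strand, which was not called (log2 difference -0.02). Bola3, which delivers iron-sulfur clusters to mitochondrial enzymes, was at 141 and 141 at 0 h and 26.6 and 22 at 12 h. Det1, an adaptor of a cullin ubiquitin ligase, was at 194 and 199 and then 35.4 and 38.1, and Zfp398, a zinc-finger factor, at 143 and 131 and then 23.8 and 28. The log2 differences of the last 3 genes were -2.49, -2.39 and -2.36 (limma adjusted p 0.000338, 0.000174 and 0.000416). Snhg17, a non-coding host of small nucleolar RNAs, fell from 997 and 792 to 193 and 146, although small nucleolar RNA genes lie within its exons. Tlcd5 (-2.96), Mob3b (-2.56, a MOB family kinase activator) and the protocadherin Pcdhga11 (-2.79) complete the 12 named falls. All 12 calls held, with limma adjusted p of at most 0.0163 without a library, that of Mob3b.

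The named rises were smaller. Atn1 (ENSMUSG00000004263.15, chr6:124742544-124756524, minus strand), the transcriptional corepressor atrophin-1, was at 317 and 292 at 0 h and 1103 and 1228 at 12 h, higher by 1.93 on the log2 scale (SE 0.08, limma adjusted p 2.66e-05). Gys1 (ENSMUSG00000003865.16, chr7:45434844-45456619, plus strand), the glycogen synthase of muscle and most other tissues, rose from 509.5 and 520.1 to 1558 and 1585 (log2 difference 1.61, SE 0.06, limma adjusted p 2e-05). Prkag1, the gamma subunit of the energy sensor AMPK, went from 270.3 and 286 to 870.4 and 860.2 (log2 difference 1.63, limma adjusted p 3.65e-05). In each of these genes the replicates lay close together and the groups far apart. Each also shares exonic sequence with another annotated gene, Gm45234 on the same strand for Atn1, and Ruvbl2 and B130046B21Rik on the opposite strand for Gys1 and Prkag1. Ruvbl2 itself was not called (log2 difference 0.03).

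Dtwd2, which modifies transfer RNA, was at 177 and 173 at 0 h and 591 and 571 at 12 h, and Islr2, a leucine-rich-repeat membrane protein of neurons, at 136 and 165 and then 525 and 493. Their log2 differences were 1.72 and 1.76 (limma adjusted p 6.27e-05 and 0.000178). Creb3l2, a membrane-bound transcription factor of the endoplasmic reticulum, rose from 79.2 and 83.2 to 288 and 198, with the 12 h libraries apart from each other but both above 0 h. H2-Q10, a class I histocompatibility gene whose reads may be shared with close relatives, was at 27.4 and 37.1 and then 221 and 196, and Arhgef19, a guanine nucleotide exchange factor, at 35.9 and 27 and then 112 and 115. The remaining named rises were less firm. Scml2, a germline protein of the Polycomb family, was at 29.6 and 13.2 at 0 h and 163 and 114 at 12 h, and without the first 12 h library its limma adjusted p was 0.063. Igfbpl1 went from 25.4 and 72.9 to 136 and 138, the collagen Col6a5 from 25.8 and 52.1 to 134 and 89.2 and the calcium channel gene Cacna1h from 29.8 and 72.1 to 186 and 101. These 3 calls ended without either 12 h library, with limma adjusted p of up to 0.191, 0.181 and 0.284, and the last also without the first 0 h library. With each library left out in turn, their log2 differences ranged from 0.90 to 2.39, from 1.06 to 2.04 and from 0.92 to 2.16.

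**Figure D2:**
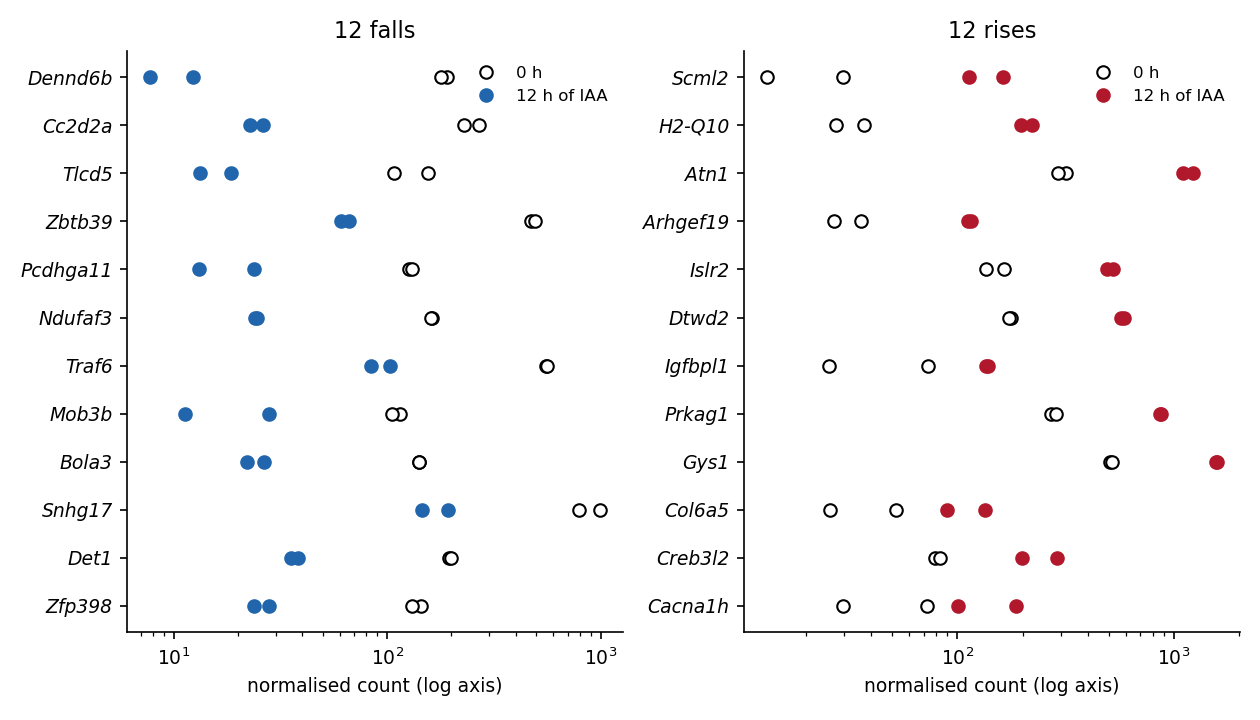
The normalised count (log axis) of the 12 largest falls (left) and 12 largest rises (right) among calls whose higher group averaged at least 100. Open circles are the 2 libraries at 0 h and filled circles the 2 at 12 h. That the groups do not overlap was a condition for naming the 24 genes. The 0 h libraries of Igfbpl1 and Cacna1h lie farthest apart among the rises.

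Among genes with a mean of at least 2000, the largest falls and rises were smaller. Ubqln4, a shuttle factor that carries proteins to the proteasome, fell from 3816 and 3899.6 to 1602 and 1579 (log2 difference -1.28, limma adjusted p 9.77e-06). Malat1, a nuclear long non-coding RNA, was at 7673 and 7728 at 0 h and 3334 and 3209 at 12 h (log2 difference -1.24, limma adjusted p 6.46e-06), and Gm27694 and Gm37376 overlap its exons. Got2, the mitochondrial aspartate aminotransferase, was at 7378 and 7193 and then 3428 and 3431 (log2 difference -1.09, limma adjusted p 6.46e-06). Snrpd1, a core protein of the spliceosomal particles, Lrrc59, a ribosome-binding protein of the endoplasmic reticulum, and Pabpc4, a poly(A)-binding protein, fell by 0.88, 0.81 and 0.78 on the log2 scale. Abundant genes that rose were Lefty2, at 2308 and 2309 and then 4190.0 and 4160.5, and Gabpb2, a subunit of the transcription factor GABP, at 2504 and 2562 and then 4561 and 4368. Their log2 differences were 0.85 and 0.82 (limma adjusted p 2.48e-05 and 2.94e-05). Uso1, a vesicle tether, and Dna2, a nuclease of DNA repair, followed at 0.63 and 0.52. All of these calls held. Ifrd1 also rose (0.52), and lost its call without either 12 h library (limma adjusted p up to 0.108).

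Since CTCF binds near start sites, the promoters of the genes that fell were read for the core of its motif. The core searched was CCA, 2 free bases, AG, 2 free bases and GGC, on either strand, in the 300 bases from 250 before to 50 after each RefSeq start (build GRCm38.p6). Promoters were found for 81.4% of the protein-coding genes read. Of 140 that fell by at least 2-fold and had an entry, 16 held the core (11.4%). It was found in 350 of all 10286 such genes tested (3.40%), in 36 of 876 that fell by less (4.11%), in 267 of 8422 that were not called (3.17%) and in 29 of 748 that rose by less than 2-fold (3.88%). Among genes that rose by at least 2-fold it was found in 2 of 100. Promoters were matched for 73.0% of those genes, against 81.4% of those that fell by at least 2-fold. Because of this unequal coverage that count is not set against the others. The stricter CTCF consensus, with a choice of 2 bases at several of the free positions, was held by 10 of the 140 (7.14%) and by 82 of the 10286 (0.797%). The median GC content of the promoters was 62.0% in the genes that fell by at least 2-fold and 61.1% in all. The core is a description of sequence, and no measurement of CTCF binding enters here.

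The sequences below are those of 15 of the 16 genes with at least 2-fold falls whose promoters held the core. Limch1 is left out. Its match lies after the start and would be cut short by the limit of 30 bases after a start set for printing. The fixed letters of the core were set by the search, so their likeness between lines is not a result. Each line gives 40 bases on the strand of the gene, 5′ to 3′, with the 12 bases of the core in capitals, from RefSeq promoters (GRCm38.p6).
Nudt17 (chr3:96708552-96708591, gene on the minus strand): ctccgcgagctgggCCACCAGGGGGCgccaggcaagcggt
Hsd3b7 (chr7:127800494-127800533, gene on the plus strand): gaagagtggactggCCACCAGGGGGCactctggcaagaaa
Adprhl2 (chr4:126321734-126321773, gene on the minus strand): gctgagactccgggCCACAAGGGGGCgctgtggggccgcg
Rsad1 (chr11:94549274-94549313, gene on the minus strand): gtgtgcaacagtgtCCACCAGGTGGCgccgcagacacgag
Krtcap2 (chr3:89246353-89246392, gene on the plus strand): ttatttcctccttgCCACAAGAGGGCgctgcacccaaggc
Wdr41 (chr13:94976297-94976336, gene on the plus strand): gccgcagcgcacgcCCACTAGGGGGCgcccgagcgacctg
Gaa (chr11:119267922-119267961, gene on the plus strand): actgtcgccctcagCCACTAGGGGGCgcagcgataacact
Ext2 (chr2:93822579-93822618, gene on the minus strand): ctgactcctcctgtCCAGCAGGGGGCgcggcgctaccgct
Hs1bp3 (chr12:8313335-8313374, gene on the plus strand): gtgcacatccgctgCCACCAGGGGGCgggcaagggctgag
Gfm1 (chr3:67430017-67430056, gene on the plus strand): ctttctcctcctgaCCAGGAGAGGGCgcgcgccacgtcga
Abhd14b (chr9:106448571-106448610, gene on the plus strand): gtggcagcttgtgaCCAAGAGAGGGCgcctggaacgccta
Slc35b2 (chr17:45563716-45563755, gene on the plus strand): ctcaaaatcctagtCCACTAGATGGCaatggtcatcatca
Fam199x (chrX:137049518-137049557, gene on the plus strand): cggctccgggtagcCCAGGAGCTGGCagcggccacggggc
Entpd6 (chr2:150748931-150748970, gene on the plus strand): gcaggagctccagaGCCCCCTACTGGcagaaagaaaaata
Dennd6b (chr15:89196629-89196668, gene on the minus strand): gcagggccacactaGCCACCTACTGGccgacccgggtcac
Most cores stood on the gene's own strand and close to a start. Counting once a site seen from several starts of its gene, as in Entpd6 and Krtcap2, 14 of 16 sites in the genes that fell by at least 2-fold read in that order along the gene's strand, against 219 of 363 over all genes tested. Of the 16, 13 were centred between 100 bases before and 50 after a start, against 220 of 363. The site counts cover all genes with a promoter entry, of every gene type and chromosome. An entry was found for 69.9% of the genes that fell by at least 2-fold and for 73.4% of all genes tested. Entpd6 and Dennd6b carry it on the other strand, 129 and 174 bases before a start, and Slc35b2 carries it 200 bases before. Of the 12 named falls above, 10 had a promoter entry, and Dennd6b alone held the core.

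Genes with the core close to the start fell at low and at high levels. Gfm1, an elongation factor of mitochondrial translation, was at 1729 and 1816 at 0 h and 738 and 744 at 12 h (log2 difference -1.26, limma adjusted p 2.5e-05). Gaa, the lysosomal enzyme that breaks down glycogen, was at 691 and 678 and then 267 and 293 (-1.29, limma adjusted p 0.000146), and Ext2, a polymerase of heparan sulfate, at 414 and 409 and then 159 and 185 (-1.26, limma adjusted p 0.000502). Adprhl2, a hydrolase that removes ADP-ribose from proteins, fell from 459 and 405 to 103 and 88.7 (-2.17, limma adjusted p 0.000104). Krtcap2, a subunit of the oligosaccharyltransferase, fell from 522 and 524 to 158 and 121, and Wdr41, a partner of C9orf72, from 309 and 269 to 91.5 and 92.2. Hsd3b7, an enzyme of bile acid synthesis, went from 56.9 and 87.5 to 12.9 and 7.39, and Nudt17 from 29.4 and 41.2 to 6.87 and 6.33. The calls of these 8 genes held, with limma adjusted p of at most 0.0487 without a library. Rsad1, at 36.7 and 43.8 and then 7.58 and 11.8, lost its call without the first 12 h library (limma adjusted p 0.0597). Abhd14b, at 16.4 and 20.8 and then 4.10 and 2.86, lost it without either 12 h library or the second 0 h library (up to 0.0908). Most genes with the core were not called. Of the 350 counted above, 267 were not called, 52 were called lower and 31 higher. Radil, an effector of the GTPase Rap, held the core 175 bases before the start. It rose from 152 and 151 to 366 and 363 (log2 difference 1.26, limma adjusted p 0.000325).

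**Figure D3:**
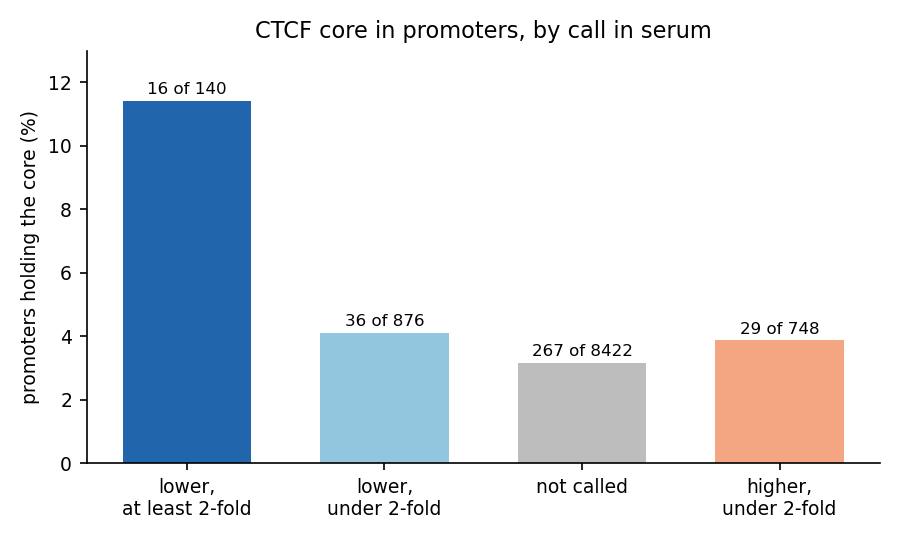
The percentage of protein-coding genes outside chromosome 18 whose RefSeq promoter (250 bases before to 50 after the start) holds the CTCF core. Genes are grouped by their call in serum, with the number of genes above each bar. Genes that rose by at least 2-fold are not shown. The bar of genes that fell by at least 2-fold stands at 11.4%, and the others lie between 3.17% and 4.11%.

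The clustered protocadherins had the lowest median of the gene lists. These cell-surface adhesion genes lie in arrays of alternative first exons, each with its own promoter, that join shared constant exons, so values of single isoforms are uncertain. Of 20 members listed, 16 reached the minimum mean and were tested, all of the gamma array. Of these 16, 12 were called lower, each by at least 2-fold, and 0 higher. Over all genes tested 9.25% were called lower, 1.44% lower by at least 2-fold, and 7.73% higher. The median log2 difference of the 16 was -2.82, against -0.000225 over all genes tested. Pcdhga8 was at 54.2 and 53 at 0 h and 3.03 and 2.64 at 12 h, Pcdhgb5 at 52.3 and 66.1 and then 4.06 and 2.60, and Pcdhga1 at 68.3 and 77.9 and then 2.30 and 7.94. Pcdhgb2 was at 22.6 and 18.6 at 0 h and is listed at 0 in both 12 h libraries, and without it the median was -2.79. Several members, among them these 4, reached the minimum mean of 10 through their 0 h values alone. A member low in both groups could not enter, so the count and the median are set in part by that filter. The levels were low, and over the 2 members with a mean of at least 100, both of the C type, the median was 0.09. The fall was not uniform along the array. Pcdhga12, the last variable exon tested before those of the C type, and Pcdhgb7 went from 121 and 104 to 59.6 and 42 and from 52 and 48.8 to 22.2 and 22, log2 differences of -1.15 and -1.15. The C-type members Pcdhgc3, Pcdhgc4 and Pcdhgc5 had log2 differences of 0.35, -0.17 and 0.19 and were not called (limma adjusted p 0.148, 0.328 and 0.728). Of the 12 calls 10 held. Pcdhga12 lost its call without the second 12 h library (limma adjusted p 0.0844), and Pcdhgb7 without either 12 h library or the first 0 h library (up to 0.0938).

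Neighbouring genes were compared next, since CTCF insulates neighbouring domains. Of 14464 pairs of adjacent tested genes, 52.5% had differences of the same sign. Of 516 pairs in which both genes were called it was 314 (60.9%), and of 28 in which both differed by at least 2-fold it was 24, 19 with both lower and 5 with both higher. Of these 19 pairs of falls, 10 involve the protocadherin array. Outside that array, 8 runs of at least 4 adjacent tested genes were called in 1 direction, 6 higher and 2 lower. The clearest run of rises was on chromosome 1 and held the Nodal inhibitors Lefty2 (chr1:180893108-180899103) and Lefty1 (chr1:180935022-180938400). Lefty1 went from 1406 and 1512 to 2331 and 2287 (log2 difference 0.66, limma adjusted p 0.00024), and Tmem63a, an ion channel gene 3.94 kb beyond it, from 271 and 254 to 357 and 350.2 (0.43, limma adjusted p 0.0212). Tmem63a lost its call without either 12 h library or the second 0 h library (up to 0.127).

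The run of falls with the most genes held 5 zinc-finger genes in 137 kb of chromosome 6. Zfp786 was at 40.8 and 40.9 at 0 h and 16.1 and 7.72 at 12 h, Zfp398, named above, lies 4.79 kb from it, and Zfp282 was at 101 and 114 and then 66 and 63.7. Zfp212 was at 340.0 and 339 and then 208 and 218, and Zfp783 at 37.4 and 14 and then 3.02 and 2.59. Their log2 differences ran from -2.66 in Zfp783 to -0.67 in Zfp212. The calls of Zfp398 and Zfp212 held, while that of Zfp786 ended without either 0 h library or the second 12 h library, that of Zfp282 without either 12 h library or the second 0 h library, and that of Zfp783 without either 12 h library or the first 0 h library (limma adjusted p up to 0.0897, 0.134 and 0.104). The next gene, Zfp956, was not called (-0.47, limma adjusted p 0.0695). Other pairs with shared direction were Traf6 with Prr5l (-1.36, limma adjusted p 0.0354, a call lost without either 0 h library or the first 12 h library, up to 0.134), and Snhg17 with Snhg11, which fell from 712 and 703 to 411 and 385. Neighbours could also differ. Cc2d2a fell while Fbxl5, 3.64 kb away, rose from 1111 and 1189.6 to 1538 and 1449.7 (0.38, limma adjusted p 0.00519, and 0.0659 without the first 12 h library).

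Naive pluripotency genes were lower at 12 h, by a modest amount. Of 20 tested, 13 fell and 2 rose (median log2 difference -0.27), and 9 of the falls held. Esrrb, an orphan nuclear receptor of the naive network, went from 7967 and 8317 to 5642 and 5739.8 (log2 difference -0.52, limma adjusted p 8.11e-05), and Nanog, the homeodomain factor that resists differentiation, from 5204 and 5186 to 3631 and 3722 (-0.50, limma adjusted p 9.91e-05). Fgf4, the autocrine growth factor, fell from 2565 and 2691 to 1741 and 1689, Nr0b1, a nuclear receptor corepressor, from 1232 and 1228 to 789.9 and 698, Tfcp2l1 from 4022 and 3954 to 2915 and 3096, and Zfp42 from 7718 and 7597 to 6245 and 6389. Klf4, Nr5a2 and Stat3 were not called, with log2 differences of -0.06, 0.02 and 0.11. Dppa2, an activator of early embryonic genes, rose from 1955 and 1871 to 2612 and 2547 (0.43, limma adjusted p 0.000694). Prdm14, Tbx3 and Klf2 lost their calls without either 12 h library or the second 0 h library, and Tcl1 without the first 12 h library (limma adjusted p up to 0.124, 0.133, 0.134 and 0.0558). With no variance trend limma called 0 of the 20, and at an unadjusted p under 0.05 the fit with the trend had 13 lower and 3 higher. These counts, and those of the lists below, stand beside 9.25% lower and 7.73% higher over all genes tested.

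The core factors shared by all pluripotent states moved less. Of 8 tested, Lin28a, a regulator of microRNA processing, rose by 0.24 on the log2 scale and held, though not with no variance trend. Pou5f1 was not called (-0.04). Sox2 fell by 0.20 (limma adjusted p 0.00638) and lost its call without either 12 h library (up to 0.0724). Utf1, a chromatin-bound protein of stem cells, was the second call upward (0.13, limma adjusted p 0.0402) and lost it without each of the 4 libraries in turn (up to 0.178). Formative and primed genes leaned upward, with 5 of 13 called higher, 1 lower (Dnmt3b, -0.08, a call lost without any 1 of the libraries) and a median of 0.32. Dnmt3a, a de novo DNA methyltransferase, rose from 3763 and 3785 to 4909.8 and 4971 (0.39, limma adjusted p 0.000214) and held. Pou3f1, a neural and epiblast factor, went from 240.1 and 248 to 369 and 372 and Cdh2, N-cadherin, from 228 and 214 to 309 and 314, and neither held without either 12 h library (limma adjusted p up to 0.0585 and 0.109). Lef1 and Grhl2 lost their calls without either 12 h library and without 1 of the 0 h libraries, the first for Lef1 and the second for Grhl2 (up to 0.191 and 0.196), and Otx2, Fgf15 and Dnmt3l were not called (0.20, 0.32 and 0.07).

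Secreted signals and their targets rose in part. The list of BMP, Nodal and Id genes had 4 higher and 1 lower of 19 (median 0.14). Beside Lefty1 and Lefty2, which held, the rises included Id3, an inhibitor of bHLH factors, from 333 and 297 to 474 and 498. Id3 was not called without the second 12 h library (limma adjusted p 0.0631). The receptor Bmpr2 was lower (-0.36, limma adjusted p 0.0075, and 0.0676 without the first 12 h library), and the ligand Nodal and the target Id1 were not called (-0.17 and 0.14). Of 16 genes of Wnt signalling, 5 rose and 0 fell (median 0.29). Sfrp2, a secreted Wnt binder, rose from 464 and 502 to 953 and 988 (1.01, limma adjusted p 0.000178) and held. The inhibitors Nkd1, Notum and Axin1 and the effector Lef1 did not hold without either 12 h library, nor without the first 0 h library or, for Notum, the second (limma adjusted p up to 0.166, 0.196, 0.117 and 0.191), and Axin2 was not called (0.31, limma adjusted p 0.09). Of 20 genes of the FGF-ERK pathway and immediate early response, 5 rose and 1 fell. Myc, the growth-promoting transcription factor, went from 887 and 877 to 1388 and 1417 (0.67, limma adjusted p 0.000253) and Ier3, an immediate early gene, from 152 and 169 to 303 and 314 (0.94, limma adjusted p 0.00173), and both held. Etv5, an effector of ERK, fell from 7909 and 7923 to 6693 and 6814.

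Targets of p53 were lower as a group. Of 24 tested, 16 fell and 0 rose, with a median log2 difference of -0.52, and 12 of the falls held, 7 of the 16 also with no variance trend. Trp53inp1, a stress-induced cofactor of p53, went from 4979 and 5082 to 2894 and 2996 (-0.77, limma adjusted p 2.63e-05) and Ccng1, cyclin G1, from 5206 and 5242 to 3443 and 3458 (-0.60, limma adjusted p 3.94e-05). Eda2r, a death-domain receptor, fell from 1457 and 1479 to 865 and 849, Zmat3, an RNA-binding tumour suppressor, from 3014 and 2976 to 1971 and 1939, Btg2, an antiproliferative factor, from 711 and 757 to 408 and 399.5, and Cdkn1a, the cell cycle inhibitor p21, from 684 and 803 to 464 and 413. In each of these, as in every gene called lower, the 12 h libraries lay below both 0 h libraries. Mdm2, the ubiquitin ligase that removes p53, fell by 0.39 on the log2 scale, and its limma adjusted p was 0.0583 without the first 12 h library. Phlda3 also lost its call without the first 12 h library, Bbc3 without either 12 h library or the first 0 h library, and Gdf15 without any 1 of the 4 libraries (up to 0.0881, 0.111 and 0.192). Bax, Pmaip1, Sesn1 and Rrm2b were not called (0.09, -0.07, 0.36 and 0.50), and the Trp53 transcript itself was at 4486 and 4531 and then 4524 and 4603.

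Genes of the integrated stress response and amino acid supply fell alongside. This response acts through the factor ATF4, which raises enzymes and transporters for amino acids. Of 21 tested, 13 fell and 1 rose (median -0.35), 8 of the falls held, and 2 were called with no variance trend. Asns, asparagine synthetase, went from 4276 and 4242 to 2887 and 2975 (-0.54, limma adjusted p 0.000104) and Mthfd2, an enzyme of mitochondrial folate metabolism, from 2196 and 2189.5 to 1427 and 1412 (-0.63, limma adjusted p 0.000146). Psat1 and Phgdh of serine synthesis fell from 8330.2 and 8096 to 6432 and 6346 and from 2433 and 2438 to 1972 and 1855. Cth, which makes cysteine, fell from 1595 and 1504 to 1067 and 1061, and the transporter Slc7a5 from 5533 and 5462 to 4221 and 4419. Sesn2, which stands in this list and among the p53 targets, fell from 2333 and 2351 to 1739 and 1832. Atf4, Chac1, Trib3 and Ddit3 were not called (-0.01, 0.02, 0.05 and -0.24). The single rise was Ppp1r15a, a phosphatase subunit that ends the response, from 664 and 637 to 849 and 818, lost without either 12 h library (limma adjusted p up to 0.0906).

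**Figure D4:**
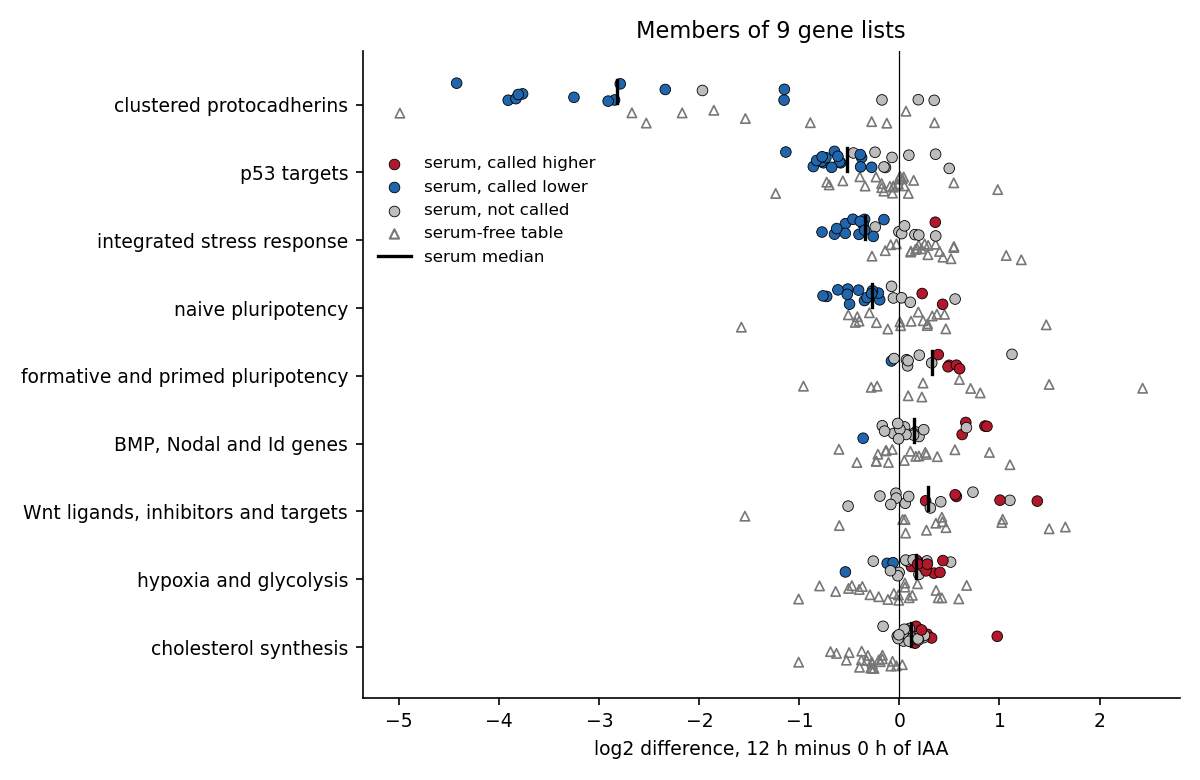
The log2 difference (12 h minus 0 h) of each tested member of 9 gene lists. Filled circles are the serum libraries, coloured by their call, with the serum median as a black bar; open triangles below them are the same genes in the serum-free table, normalised separately. Serum values of p53 targets and of the integrated stress response lie mostly below 0 (medians -0.52 and -0.35), and cholesterol synthesis genes lie slightly above 0 in serum (median 0.12) and below it in the serum-free table (median -0.28).

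Hypoxia and glycolysis genes were split, with 9 of 23 higher and 3 lower (median 0.17). Slc16a3, a lactate exporter, rose from 983 and 989.8 to 1358 and 1309, Bnip3, a mitophagy receptor, from 1635 and 1652 to 2103 and 2075, and the glycolytic enzymes Tpi1 and Pgk1 by 0.28 and 0.18 on the log2 scale. Slc2a3, a high-affinity glucose transporter, fell from 21393 and 20963 to 14645 and 14479 (-0.54, limma adjusted p 1.6e-05), and Eno1 by 0.12. These 6 calls held, but with no variance trend limma made none of this list's calls. Cholesterol synthesis genes, the targets of SREBP2, had 6 of 23 higher and 0 lower (median 0.12), among them Fdft1, squalene synthase, from 1273 and 1235 to 1579 and 1556 and Cyp51 from 1139 and 1062 to 1333 and 1336. None of the 6 calls, which also include Sqle and Idi1, held without the first 12 h library, where limma called 1 other member, Lss, which was not called with all libraries (0.24, limma adjusted p 0.172). Of the 6, Fdft1 alone held without the second 12 h library (limma adjusted p up to 0.0541 for Fdft1, 0.104 for Cyp51, 0.0734 for Sqle and 0.186 for Idi1). Hmgcs1, an early enzyme of the pathway, was not called (-0.02).

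Of 9 genes of the aryl hydrocarbon receptor, a ligand-activated factor that binds many planar indole compounds, 2 rose and 1 fell, the receptor gene Ahr (-0.49, limma adjusted p 0.0453, a call lost without any 1 of the 4 libraries, up to 0.172). Cyp1a1, its best-known target, was at 5.31 and 8.48 at 0 h and 25.2 and 29 at 12 h (log2 difference 1.86, limma adjusted p 0.0185), and Serpinb9 at 12.7 and 20.1 and then 62.5 and 77.5 (2.05, limma adjusted p 0.00452). Cyp1a1 lost its call without either 12 h library (up to 0.13) and Serpinb9 without the second (limma adjusted p 0.0678). Cyp1b1 went from 28.6 and 34.1 to 53.5 and 53.9 and was not called (limma adjusted p 0.0622). The 12 h group differs from the 0 h group in IAA and in CTCF at once, and with no degron-free cells given IAA these cannot be told apart here.

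Other lists changed little or in both directions. Of 22 germline genes 3 rose and 0 fell. Mael, a piRNA factor, went from 133 and 158 to 348 and 330.4 (1.22, limma adjusted p 0.000864) and held, beside its neighbour Ildr2 at 67.8 and 55 and then 136 and 161 (limma adjusted p 0.00413, and 0.0622 without the second 12 h library), while Ddx4 did not hold (limma adjusted p 0.0543 without the first 12 h library). Of 30 imprinted genes 6 rose and 6 fell. Kcnq1ot1, the non-coding RNA that silences the Kcnq1 domain, fell from 259 and 270.4 to 140.2 and 148 (-0.87, limma adjusted p 0.00258), Nnat, a membrane proteolipid, rose from 391 and 401 to 695 and 662 (0.78, limma adjusted p 0.000633), and both held. Igf2 and H19, the textbook locus of CTCF insulation, were not called (0.10 and -0.35, limma adjusted p 0.342 and 0.525). Of 15 genes of DNA methylation, Tet2 and Tet1, which oxidise methylcytosine, fell by 0.63 and 0.28 on the log2 scale and held. Of 15 NuRD subunits 2 rose and 3 fell. None of these calls, nor of those on DNA methylation genes, was made with no variance trend. The deacetylase Hdac1 fell from 4394 and 4391 to 3356 and 3334 and the remodeller Chd4 from 14895 and 14914 to 13353 and 13311, and both held. Gatad2b, a scaffold of the complex (-0.27), and the methyl-CpG-binding domain proteins Mbd2 (0.45) and Mbd3 (0.25) were the other calls, and none of these held (limma adjusted p up to 0.0552, 0.188 and 0.161 without a library).

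Of 20 genes of CTCF and cohesin machinery 4 rose and 3 fell. The calls that held were Ctcf itself, at 5214 and 4933 and then 6481 and 6292, and the cohesin acetyltransferase Esco2. Esco2 was at 3257 and 3282 and then 2351 and 2396 (-0.46, limma adjusted p 0.000241). Limma made none of this list's calls with no variance trend. Of 26 mitotic genes 6 fell and 1 rose, with Mki67, the proliferation marker, from 7535 and 7554 to 6312 and 6204. Of 14 interferon-response genes 5 fell and 1 rose, and of these Ifitm3 alone held (-0.40, limma adjusted p 0.00284). Ifitm3 was not called with no variance trend. The 2-cell-like genes (8 tested) and Hox genes (5 tested) had 0 limma calls. At an unadjusted p under 0.05, 1 of the 2-cell-like genes and 2 of the Hox genes were higher, and with no variance trend limma called 1 Hox gene. Of the lineage lists, 1 of 7 mesoderm and T-box genes rose and 1, Tbx3, fell. Of 12 primitive endoderm genes 2 rose and 1 fell. Of 11 trophoblast genes 1 rose and 0 fell, and of 8 neural genes 0 rose and 1 fell. T, the mesoderm factor brachyury, rose from 20.5 and 28.5 to 76.3 and 85.2 (1.70, limma adjusted p 0.00447), a call lost without either 12 h library. The 7 mesoderm and T-box genes summed to 975 and 1124 at 0 h and 925 and 996 at 12 h, unlike the 3 mesoderm markers summed above. Scn3a, a neuronal sodium channel, fell from 52.6 and 33.3 to 5.93 and 2.63 and held. Of 87 cytosolic ribosomal protein genes 9 rose and 12 fell, and with quantile normalisation 20 rose and 9 fell, so no direction is given for them. Where a list had 0 calls in a direction, an unadjusted p under 0.05 was reached there by 2 p53 targets, 1 protocadherin and by 0 cholesterol genes, 2 Wnt genes and 1 germline gene. It was reached there by 1 trophoblast gene and 0 neural genes.

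The serum response was then set beside 12 h of IAA in the serum-free tables, a first of CTCF AID cells and another of CTCF AID cells with an overexpression control, each with libraries of its own and normalised separately. Differences between tables were therefore not tested. Most large differences had the same sign. Of 286 genes called at least 2-fold in serum and tested in serum-free CTCF AID cells, 88.1% had the same sign there, against 55.7% of all 12959 genes tested in both tables, and 169 were called in the same direction and 2 in the opposite one, where 17.8% of all genes tested were called. In the overexpression control 25.3% of all genes tested were called. The correlation of the log2 differences across these genes, which are not independent replicates and were chosen for large values in serum, was 0.78 by Pearson and 0.78 by Spearman. It rests largely on the shared sign. Within the 115 rises it was 0.24 by Pearson and 0.20 by Spearman, and within the 171 falls 0.47 and 0.48. Of the serum calls of at least 2-fold, 276 were tested in both serum-free tables, and 83 were not tested in serum-free CTCF AID cells. Of the 276, 151 were called in the same direction in both, 104 of 169 falls and 47 of 107 rises, and 59 in neither. The share of all genes called alike in both was not counted, so the 151 have no background beside them. Cc2d2a had log2 differences of -3.29 in serum, -3.90 in serum-free CTCF AID cells and -3.52 in the overexpression control. Det1 had -2.39, -2.93 and -2.67, Got2 had -1.09, -1.34 and -1.29, and Zbtb39 had -2.91, -1.11 and -1.07. Among the genes with the core, Adprhl2 had -2.17, -2.56 and -2.83, and Krtcap2 -1.91, -1.84 and -1.87.

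**Figure D5:**
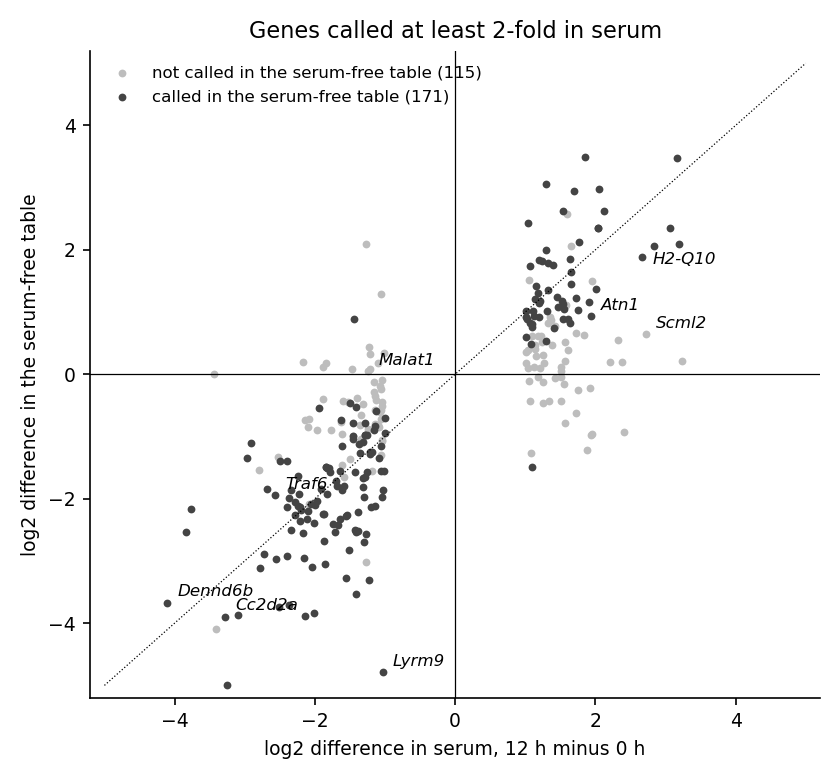
The 286 genes called at least 2-fold in serum and tested in serum-free CTCF AID cells, by their log2 difference in serum (horizontal) and in the serum-free table (vertical); the dotted line marks equal values. Dark points were also called in the serum-free table (171), and 88.1% of points lie in the lower left or upper right quadrant, while Malat1 lies near 0 and Lyrm9 far below the line on the vertical axis.

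Over all 2352 serum calls tested in serum-free CTCF AID cells, 64.9% had the same sign, against the 55.7% of all genes tested in both, 647 were called in the same direction and 212 in the opposite one. Malat1 fell in serum by 1.24 on the log2 scale, while its log2 difference was 0.05 in serum-free CTCF AID cells (limma adjusted p 0.696) and 0.66 in the overexpression control (limma adjusted p 8e-05). Over all genes tested in serum-free CTCF AID cells, 1287 of 13699 were called higher and 1151 lower. In the overexpression control 1784 of 13938 were called higher and 1746 lower. The serum-free counts of the gene lists that follow stand beside these. The integrated stress response had 13 of 21 lower in serum. It had 8 of 21 higher and 0 lower in serum-free CTCF AID cells, and 11 higher and 3 lower in the overexpression control. Asns was at -0.54 in serum and 0.22 in serum-free CTCF AID cells (limma adjusted p 0.00268), and Psat1 at -0.36 and 0.19. Cholesterol synthesis genes had 6 of 23 higher in serum, and 13 and 15 of 23 lower in the 2 serum-free tables. Of the p53 targets, 4 of 24 were lower and 2 higher in serum-free CTCF AID cells, and 8 were lower and 2 higher in the overexpression control. In serum-free CTCF AID cells the log2 differences were -0.06 for Trp53inp1, -0.07 for Ccng1 and -0.73 for Cdkn1a (limma adjusted p 0.000238). Of the naive genes, 9 of 20 were higher and 5 lower in serum-free CTCF AID cells, and 5 were higher and 7 lower in the overexpression control, against 2 higher and 13 lower in serum. Tfcp2l1 had -0.41 in serum and 0.37 in serum-free CTCF AID cells (limma adjusted p 0.000399), Zfp42 -0.28 and 0.24, and Nanog -0.50 and -0.40. Clustered protocadherins had 6 of 11 lower and 1 higher in serum-free CTCF AID cells, and 10 of 14 lower in the overexpression control.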

How the data were processed

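RNA was measured by sequencing of polyadenylated transcripts in 4 serum libraries, 2 at 0 h and 2 at 12 h, and set beside 2 serum-free tables of the series. The deposited values are a signal, gene counts normalised by the authors, who per the submitters' processing notes used Trim Galore, Bowtie2, STAR, RSEM and DESeq2 with the build mm10; their order and versions are not given in the sources used here, nor is the strand setting. Whole reads could not be recovered, so a count model was not used and sequencing depth is unknown; totals after normalisation say nothing of it. Genes with a mean of at least 10 were fitted on log2(value + 1), a scale that understates changes of low genes, with limma 3.58.1 in R 4.3.3 (variance trend over the mean, Benjamini-Hochberg adjustment over all genes, two-sided). With 2 libraries a group the residual degrees of freedom were 2, and the variance was moderated over genes. The fit was also run on simulated data in which all genes shared a single dispersion and changes were 2-fold or 4-fold. That setting is simpler than these libraries and does not bear on the many calls of smaller differences. Serum-free tables were fitted alone, with all their groups; 1 incomplete line of a table was left out. Positions are from GENCODE M21 (GRCm38), matched for 14486 genes by gene identifier without version, and promoters from RefSeq (GRCm38.p6).

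Named genes are the 12 that rose most and the 12 that fell most among calls whose higher group averaged at least 100. Added to these were the 6 largest calls in each direction whose mean over all libraries reached 2000. Provisional symbols were left out, and groups that do not overlap were required, which every called gene met. Up to 4 called members per gene list and Ctcf were also named. Further list members, neighbours, runs of genes and genes with the core were named after their values were seen, as was the restriction of the promoters to protein-coding genes, with those on chromosome 18 left out. The members and lists were chosen with earlier results of these data known. Alternatives were other pseudocounts (0.5 and 5), filters, scalings, variance models, the replicate block and leaving out each library. Some genes that the naming rule or the lists include are not reported here.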

Additional observations from a re-analysis of the deposited data

Results flagged for a closer look

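For 20 of the 115 named genes reported here that were called in serum and tested in serum-free CTCF AID cells (17.4%), both 12 h libraries lay on one side of both 0 h libraries in serum and on the opposite side in serum-free CTCF AID cells. The same was so for 568 of all 2352 serum calls tested there (24.1%) and for 2011 of all 12959 genes tested in both (15.5%), and several of the values below lie near 0. The difference between the culture conditions was not tested, since the tables were normalised separately. Log2 differences are given for serum and then for serum-free culture. Those higher in serum and lower in serum-free culture were Bnip3 0.35 and -0.64, Cdh2 0.50 and -0.22, Cyp51 0.28 and -0.25, Dnmt3a 0.39 and -0.96, Etv4 0.35 and -0.36, Fdft1 0.32 and -0.32, Mbd2 0.45 and -0.10, Slc16a3 0.43 and -0.48, Sqle 0.22 and -0.17 and Utf1 0.13 and -0.62. Those lower in serum and higher in serum-free culture were Cenpf -0.37 and 0.08, Cth -0.54 and 0.36, Dnmt3b -0.080 and 0.71, Gatad2b -0.27 and 0.19, Kcnq1ot1 -0.87 and 0.09, Lama1 -0.33 and 0.31, Pds5a -0.21 and 0.17, Rian -0.28 and 0.08, Tcl1 -0.52 and 0.45 and Tet1 -0.28 and 0.70. They include the 3 cholesterol genes Cyp51, Fdft1 and Sqle, and Dnmt3a, Dnmt3b and Tet1 of DNA methylation.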

How the results depend on the processing

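No called log2 difference of the genes named by rule changed direction under the alternatives run. With a mean of at least 100 the list medians changed sign for the protocadherins (0.09 over 2 members), the aryl hydrocarbon receptor (-0.10 over 5) and mesoderm (-0.35 over 1 member), where fewer genes were tested; medians that crossed 0 elsewhere lay within 0.1 of it. With a mean of at least 100, 130 genes were called at least 2-fold, 43 higher and 87 lower. With no trend of the variance, 316 genes were called, 124 higher and 192 lower, of which 181 differed by at least 2-fold, 69 higher and 112 lower. The cause of this drop was not tested. Without each library in turn, 812 to 1909 genes were called, 252 to 867 higher and 560 to 1064 lower, with 205 to 400 differing by at least 2-fold and 54 to 201 of these higher. The low ends came without a 12 h library, 812 without the first and 837 without the second, against 1909 and 1906 without a 0 h library; the lone sample was then assumed to vary like the other group. The share of calls that were higher was 45.5% as reported, 50.7% with quantile normalisation, and 31.0% and 30.3% without the first and second 12 h library. The same-sign share in serum-free culture was 88.1% over the 2-fold serum calls, 97.0% over those of them with a mean of at least 100 in each table, and 84.0% to 93.8% without each library in turn; over all serum calls it was 64.9%. The stricter consensus was held by 0.790% of all promoters matched. The deviations of same-numbered libraries from their group means correlated at -0.022 across genes. With 2 libraries a group this cannot tell whether same-numbered libraries shared a culture or batch. With the replicate block 2812 genes were called, 398 of them at least 2-fold. A wider promoter window was not run, since it needs a genome sequence that was not used here. Depth is unknown, so no counting error can be given for genes near the minimum mean.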

Other observations

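Other runs of adjacent called genes were found that the text has not described. On chromosome 3 Ppa2, the mitochondrial pyrophosphatase, fell from 949.8 and 959 to 271 and 251 (log2 difference -1.87, limma adjusted p 2.5e-05) in a run with Tet2, Cenpe and Bdh2 that spans 1994 kb. Bdh2, a dehydrogenase of ketone and siderophore metabolism, fell by 1.12 on the log2 scale. Ppa2 was lower in the serum-free tables too, at -2.67 in CTCF AID cells and -2.10 in the overexpression control. On chromosome 10 the run from Moxd1 to Enpp3 holds Ccn2, a target of YAP signalling, which rose from 429 and 376 to 659 and 684 (0.74, limma adjusted p 0.00169).

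A few genes, chosen after their values were seen, stood apart in other ways. Gm5537, a provisional gene, was at 2.13 in the first 0 h library, 796 in the second and 815 and 771 at 12 h, and was not called (limma adjusted p 0.24). Lyrm9, of the LYR motif family, had a log2 difference of -1.04 in serum, -4.79 in serum-free CTCF AID cells and 0.09 in the overexpression control. Pim2, a serine kinase, fell in serum (-0.51, limma adjusted p 0.000558) and was higher in both serum-free tables, at 0.70 and 0.56 (limma adjusted p 0.00834 and 0.00502). Gpt2, the mitochondrial alanine aminotransferase, fell in serum (-0.58, limma adjusted p 0.00111) and was at 0.43 and 0.36 in the serum-free tables (limma adjusted p 0.00541 and 0.00506). The differences between tables were not tested.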
